A study of Mus musculus with 18 samples.

Results

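Mitosis is carried out by a set of genes whose transcripts are made mainly in cells that are preparing to divide. A group of 52 such genes was examined, covering CDK1 and its cyclins, the mitotic kinases, the spindle checkpoint and kinetochore, the chromosomal passenger complex, the proteins that trigger anaphase, the kinesin motors, chromosome condensation, spindle assembly, cytokinesis and the transcription factor FOXM1. They were chosen by name, though with earlier results of these data known. Each gene was read from 1 probe set, the brightest of those that carry only its symbol, taken from chip A, or else B, or else C. By this rule 50 of the 52 were measured, 43 on chip A, 7 on chip B and 0 on chip C, among 15964 genes measured in the same way. Ccnb1 and Hmmr were not analysed here.

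The arrays compared 2 cell populations from the retinas of FVB/N mice at postnatal day 8. All mice were homozygous for a Tie2-GFP transgene, in which the Tie2 promoter drives green fluorescent protein. That promoter is active in endothelial cells and is also known to be active in some blood-forming cells. Pooled retinas were dissociated with papain and sorted into GFP-positive cells (GFP-pos, the endothelial population) and GFP-negative cells (GFP-neg, all other retinal cells), so both populations came from mice with the transgene. Each population was hybridised to 3 arrays of each of the Affymetrix MGU74v2 chips A, B and C, 18 arrays in all. Nothing in the labels ties the 3 arrays of a population to different animals, and the p-values therefore reflect variation between arrays that may be technical. In such bulk samples fewer dividing cells and less of a transcript per cell cannot be told apart.

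In the cell cycle, CDK1 bound to an A- or B-type cyclin starts mitosis, chromosomes condense and attach to spindle microtubules through their kinetochores, and the spindle checkpoint holds back the anaphase-promoting complex until every kinetochore is attached. CDC20 then activates that complex, which marks securin and cyclin B for destruction, and cytokinesis separates the daughter cells. In the postnatal mouse retina the vessels are still growing, while the last progenitor cells of the neural retina are leaving the cell cycle.

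Most of the mitosis and spindle genes rose in the GFP-positive population. Of the 50 measured, 30 (60%) were higher at an adjusted p under 0.05 in limma, where 9.43% of all genes were. Only Zwint was lower, 2% of the 50, where 11.3% of all genes were. The median log2 difference, GFP-positive minus GFP-negative, was 0.84 over the 50 genes and 0.04 over all genes, and the values of the 50 ran from -0.94 to 2.69. Of the 50, 17 were called higher by at least 1 on the log2 scale, where 4.39% of all genes were. These were 17 of the 30 called higher, and over all genes 701 of the 1506 called higher reached that size. No member of the group fell by that much, which 5.71% of all genes did. All 3 GFP-positive arrays lay above all 3 GFP-negative arrays for 42 of the 50 genes (84%), against 21.8% of all genes, and below them for 3, against 18.7%. Differences are on the scale of log2(intensity + 16), which understates the change of dim genes.

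The 19 genes that did not pass were mostly on the same side. The log2 difference was above 0 in 16 of them (46 of all 50, or 92%, against 55.8% of all genes), and in 12 the GFP-positive arrays were all above the others. Cdc25b and Stmn1 had all GFP-positive arrays below the GFP-negative ones, and in Cdc25c, Kif4, Smc4, Ncapd2 and Foxm1 the arrays overlapped. Of the 50 genes, 9 were dimmer than the median probe set of their chip in both populations, and 2 of those 9 were among the genes that rose. The count that passed depended on single arrays. It was 39 without GFP-positive replicate 3, and 29 and 21 without GFP-positive replicates 1 and 2. Of all genes 14.0%, 7.72% and 6.43% were called higher in these fits. The count was 21, 17 and 17 without GFP-negative replicates 1, 2 and 3, while the share of all genes called higher was then between 5.81% and 6.13%.

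**Figure D1:**
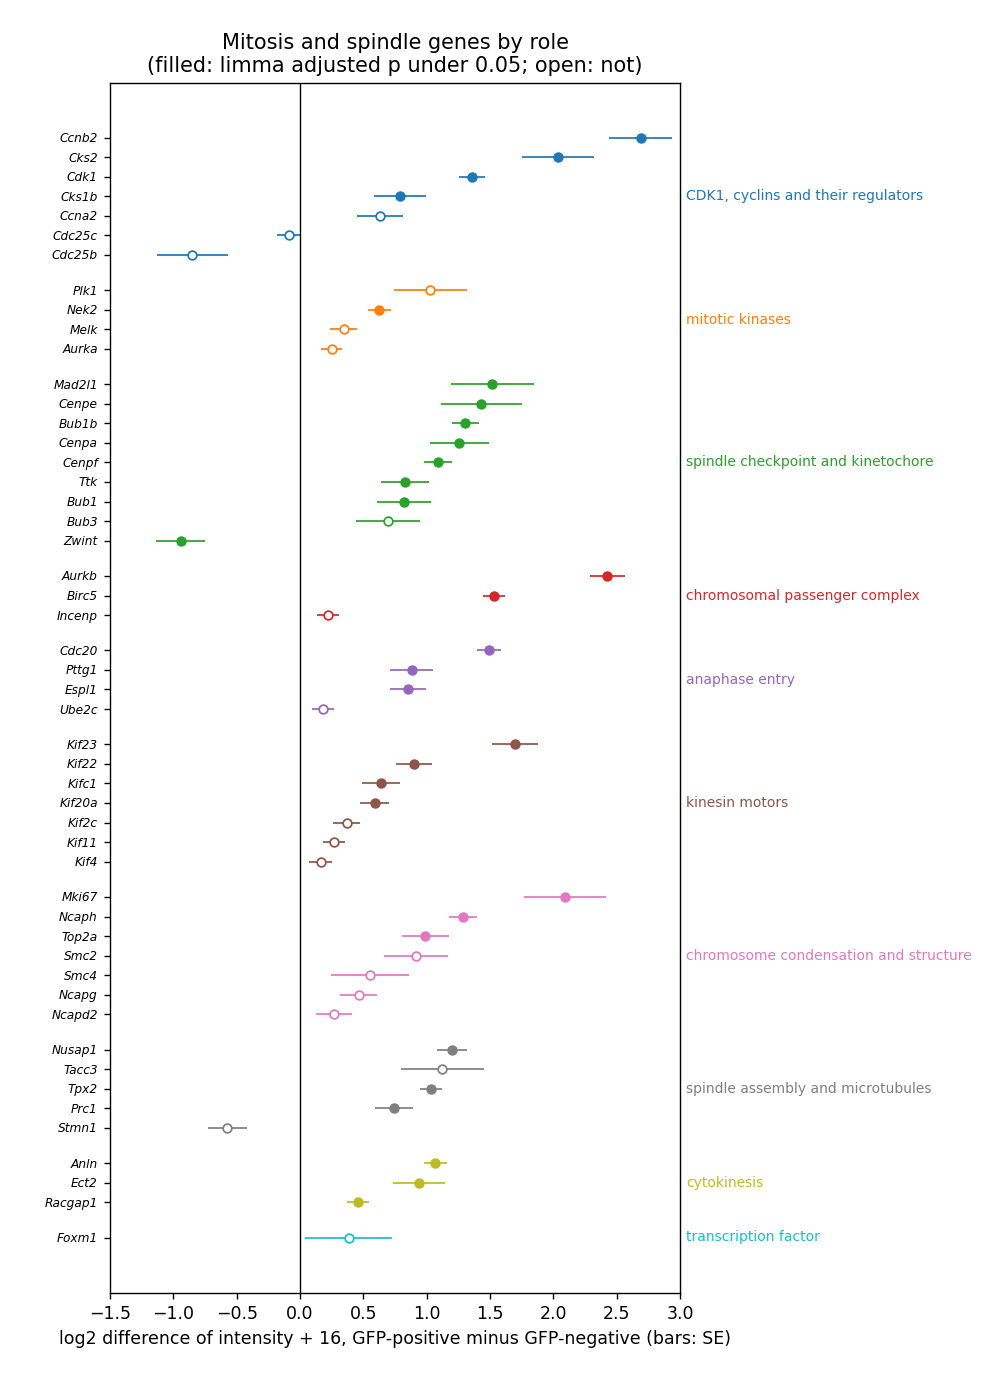
Log2 difference of intensity + 16 between GFP-positive and GFP-negative cells (horizontal axis) for the 50 measured genes, grouped by role. Points are limma estimates from 3 against 3 arrays, bars are SE, and filled points passed an adjusted p of 0.05. Points lie right of 0 for 46 of the 50 genes, from 2.69 for Ccnb2 down, and the lowest is Zwint at -0.94.

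Promoters of many genes expressed late in the cell cycle hold CCAAT boxes, which bind the factor NF-Y, and cell cycle genes homology regions (CHR), which bind the DREAM and MuvB complexes. RefSeq (GRCm38.p6) gave 46 promoters for 43 of the 52 listed genes. The 250 bases before the start were searched on both strands for CCAAT and for TTTGAA or TTCGAA, the core letters of the CHR. Matches of the 2 motifs may share a base. CCAAT was present in 80.4% of the 46 promoters and in 33.8% of 32851 promoters of all genes. The CHR letters were present in 43.5% and 17.1%, and both together in 41.3% and 6.02%. More than 1 CCAAT was found in 50.0% and 10.1%. A match is a description of these letters and not a measured binding site.

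The following stretches are the 150 bases before the start of 3 genes that rose, a B-type cyclin, the activator of the anaphase-promoting complex and a coat protein of mitotic chromosomes, and of Zwint, the gene that fell. They are shown 5′ to 3′ on the gene's strand with the matched letters in capitals. They lie at chr9:70421555-70421704 (minus strand), chr4:118437344-118437493 (minus strand), chr7:135716380-135716529 (minus strand) and chr10:72654696-72654845 (plus strand) in GRCm38.p6.
Ccnb2: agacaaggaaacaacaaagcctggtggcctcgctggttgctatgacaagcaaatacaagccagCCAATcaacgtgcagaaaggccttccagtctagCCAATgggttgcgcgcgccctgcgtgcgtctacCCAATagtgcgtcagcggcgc
Cdc20: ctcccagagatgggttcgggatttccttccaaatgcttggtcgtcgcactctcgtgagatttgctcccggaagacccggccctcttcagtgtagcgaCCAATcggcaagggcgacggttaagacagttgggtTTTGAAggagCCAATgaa
Mki67: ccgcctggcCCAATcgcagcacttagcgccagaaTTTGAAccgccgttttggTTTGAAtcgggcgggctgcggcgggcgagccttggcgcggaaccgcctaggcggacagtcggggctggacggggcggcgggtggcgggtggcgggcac
Zwint: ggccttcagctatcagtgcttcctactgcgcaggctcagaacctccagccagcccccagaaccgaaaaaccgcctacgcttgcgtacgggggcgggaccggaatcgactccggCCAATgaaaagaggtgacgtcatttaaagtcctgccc
In the Ccnb2 stretch 3 CCAAT matches began 87, 54 and 21 bases before the start, each 33 bases from the next. Its CHR letters, at 167, lay outside the stretch. The Cdc20 stretch held CCAAT 53 and 8 bases before the start and the CHR letters at 18. The Mki67 stretch held the CHR letters at 116 and 98 and CCAAT at 141. The Zwint stretch held 1 CCAAT, at 37, and its 250 bases did not hold the CHR letters. Genes that rose also lacked them, and the 250 bases of Anln, Birc5, Mad2l1, Ncaph, Nusap1 and Pttg1 held neither motif.

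Among CDK1, its cyclins and their regulators, 4 of the 7 measured genes rose, 0 fell, and the median log2 difference was 0.79. Ccnb2, cyclin B2, had the largest difference of the 50 genes. Its intensity was 427, 438 and 231 on GFP-positive replicates 1, 2 and 3 and 36.7, 46.2 and 40.6 on GFP-negative replicates 1, 2 and 3. The ratio of the means was 8.88, and the log2 difference was 2.69 (SE 0.25, adjusted p = 0.00114). The lowest GFP-positive array, replicate 3, was still well above every GFP-negative array. Cks2, a small subunit that binds cyclin-dependent kinases, was the brightest of this class at 922, 837 and 462 against 174, 126 and 189, a log2 difference of 2.04 (SE 0.29, adjusted p = 0.00557). GFP-positive replicate 3 was again the lowest of its population, and the populations did not overlap. Cdk1 itself, described here after its values were seen, gave 259, 249.8 and 207 against 88.9, 83.0 and 77.0, with a log2 difference of 1.36 (SE 0.11, adjusted p = 0.000629). Its arrays were close together within each population. Cks1b, the paralogue of Cks2, was the fourth that rose, by 0.79 (SE 0.21, adjusted p = 0.0493), and this call was lost without GFP-positive replicate 2 or without any one of the GFP-negative arrays, at an adjusted p of up to 0.152.

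The CDC25 phosphatases remove the inhibitory phosphates from CDK1 and did not rise. Cdc25b gave 47.1, 71.4 and 119 on the GFP-positive arrays and 176, 150.1 and 121 on the GFP-negative ones, a log2 difference of -0.85 (SE 0.28, adjusted p = 0.0791). The populations were separated by a small gap, between GFP-positive replicate 3 and GFP-negative replicate 3. Without GFP-positive replicate 3 the difference was -1.14 and passed. Cdc25c was -0.09 with overlapping arrays. Ccna2, cyclin A2, which acts in both S phase and mitosis, gave 130.1, 119.5 and 76.6 against 69.2, 60.4 and 59.5, a log2 difference of 0.63 (SE 0.18, adjusted p = 0.0656), with GFP-positive replicate 3 just above the highest GFP-negative array.

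Of the 4 mitotic kinases 1 rose, 0 fell, and the median was 0.49. The one was Nek2, a kinase of centrosome separation, at 0.63 (SE 0.09, adjusted p = 0.00643). Plk1, polo-like kinase 1, which acts from mitotic entry to cytokinesis, was the brightest of the class and gave 206, 279 and 467 against 124, 159.9 and 135, a log2 difference of 1.03 (SE 0.29, adjusted p = 0.0583). GFP-positive replicate 3 was the highest array, and all GFP-positive arrays were above the GFP-negative ones. Without that array the difference was smaller, 0.72, and passed. Melk, a kinase of dividing progenitor cells, was dim at 36.6, 36.6 and 26.3 against 22.8, 24.2 and 20.7, a log2 difference of 0.34 (SE 0.11, adjusted p = 0.0842), and passed without replicate 3. Aurka, aurora kinase A, was 0.25 (SE 0.08, adjusted p = 0.0904) and dimmer than the chip median in both populations.

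The spindle checkpoint and kinetochore genes held both directions, with 7 of 9 higher, 1 lower and a median of 1.09. Mad2l1, the checkpoint protein MAD2, gave 343, 178 and 130.0 against 67.0, 52.9 and 59.6, a log2 difference of 1.52 (SE 0.33, adjusted p = 0.0252). Its GFP-positive arrays differed widely, with replicate 1 highest, but all lay above the GFP-negative ones. The call was lost without GFP-positive replicate 2 or without any one of the GFP-negative arrays, at an adjusted p of up to 0.0916. The other 6 that rose had log2 differences from 0.82 to 1.43. They were the checkpoint kinases Bub1 and Ttk, the checkpoint protein Bub1b, the centromeric histone Cenpa, the kinetochore motor Cenpe and the kinetochore protein Cenpf. Of these, Bub1b and Cenpf passed with each array left out in turn, and each of the others lost its call without at least 3 of the 6 arrays. Bub3, a partner of BUB1 and BUBR1, was bright and variable at 746, 1259 and 653 against 455, 541 and 565, a log2 difference of 0.70 (SE 0.25, adjusted p = 0.122), and passed once GFP-positive replicate 3 was left out.

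Zwint, a kinetochore protein that interacts with ZW10, was the brightest of the class and moved the other way. Its intensity was 516, 763 and 839 on the GFP-positive arrays and 1199.9, 1435 and 1410.3 on the GFP-negative arrays. The GFP-negative mean was 1.91 times the GFP-positive mean, and the log2 difference was -0.94 (SE 0.19, adjusted p = 0.0216). Every GFP-negative array was above every GFP-positive array. A second chip A probe set of Zwint gave 505 ± 126 (SD, n = 3) against 1077 ± 105 (n = 3) and also fell, by 1.09 on the log2 scale (adjusted p = 0.00991). Its 4 probe sets on chips B and C were dimmer and did not pass, and 3 of them had differences above 0. The call of the first probe set was lost without GFP-negative replicate 1, 2 or 3, at adjusted p of 0.055, 0.081 and 0.0874, with the difference between -1.02 and -0.90.

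In the chromosomal passenger complex, which corrects wrong attachments of chromosomes to the spindle, 2 of 3 genes rose and the median was 1.53. Aurkb, its kinase aurora B, gave 385, 298 and 329 against 60.5, 46.2 and 42.9, a ratio of means of 6.77 and a log2 difference of 2.43 (SE 0.14, adjusted p = 0.000229). The GFP-positive arrays were close together and far above the others. Birc5, survivin, which targets the complex to centromeres, gave 66.7, 63.5 and 52.8 against 10.8, 10.96 and 9.95, a log2 difference of 1.53 (SE 0.09, adjusted p = 0.000247). It was dimmer than the chip median in the GFP-negative population, on all 3 arrays alike. The GFP-negative means of Ccnb2, Kif23 and Mki67, 41.2, 38.2 and 33.9, were also below the array medians of chip A (43.3 to 44.5). Incenp, the scaffold of the complex, had a difference of 0.22 (SE 0.09, adjusted p = 0.147) on its chosen probe set, and 1 of its 6 others, on chip B, rose by 0.50 (adjusted p = 0.0301).

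Among the 4 genes of anaphase entry 3 rose, 0 fell, and the median was 0.87. Cdc20, which activates the anaphase-promoting complex and whose promoter is shown above, gave 215, 229.6 and 251 against 77.1, 75.7 and 64.3, a log2 difference of 1.49 (SE 0.09, adjusted p = 0.000334). Here GFP-positive replicate 3 was the highest array. Espl1, separase, the protease that cuts cohesin, was the brightest of the class at 305, 277 and 291 against 127, 188 and 151, a log2 difference of 0.85 (SE 0.14, adjusted p = 0.00711). Pttg1, securin, the inhibitor of separase, rose by 0.88 (SE 0.17, adjusted p = 0.0183), and lost its call without any one of the GFP-negative arrays, at adjusted p of up to 0.0772. Its probe set name carries the suffix _s. Probe sets with _f, _s, _r, _i or _g in their name are called suffixed here, and the others plain. Of these suffixes, _f and _s mark possible matches to several transcripts. On its plain probe set, which was dim, Pttg1 was at 0.30 (adjusted p = 0.114). On a suffixed chip C probe set (_i) it rose by 0.86 (adjusted p = 0.0248). Ube2c, the ubiquitin-conjugating enzyme of the complex, was 0.18 (SE 0.08, adjusted p = 0.214) and dim in both populations.

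Kinesins are motors that move along microtubules, and 4 of the 7 measured here rose, 0 fell, with a median of 0.59. Kif23, a motor of the central spindle, gave 211, 156 and 123 against 41.0, 37.1 and 36.6, a log2 difference of 1.70 (SE 0.18, adjusted p = 0.00187). All GFP-positive arrays were high, with replicate 1 the highest. Kif22, a motor that binds chromosome arms, was the brightest at 254, 229 and 325 against 135, 123 and 150.2, a log2 difference of 0.90 (SE 0.14, adjusted p = 0.00903). Kifc1, a motor that walks to the minus end, and Kif20a, a motor of the late spindle midzone, rose by 0.64 and 0.59, and both lost their call without any one of the GFP-negative arrays. Both were read from probe sets that may match several transcripts, and neither passed on its plain probe set, where Kifc1 was at 0.0053 (adjusted p = 0.978) and Kif20a at 0.12 (adjusted p = 0.394). Both plain probe sets were dimmer than the chosen ones. Kif22 has no plain probe set here. Kif2c, which takes microtubules apart at centromeres, gave 26.5, 21.7 and 16.8 against 13.3, 12.7 and 13.1, a log2 difference of 0.37 (SE 0.11, adjusted p = 0.0664), and passed once GFP-positive replicate 3 was left out. Kif11, which pushes the spindle poles apart, and Kif4, which binds chromosomes, were at 0.27 and 0.16, and both were dimmer than the chip median in both populations.

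Of the 7 genes of chromosome condensation and structure 3 rose, 0 fell, and the median was 0.91. Mki67, the antigen of the Ki-67 antibody that marks cycling cells, gave 285, 218 and 115 against 44.0, 32.9 and 24.8, a log2 difference of 2.09 (SE 0.32, adjusted p = 0.00808). The 3 GFP-positive arrays differed by more than the 3 GFP-negative ones, with replicate 3 the lowest, and did not overlap with them. Ncaph, a subunit of condensin I, and Top2a, the topoisomerase that untangles sister chromatids, rose by 1.29 and 0.99. Top2a lost its call without GFP-negative replicate 2 or 3, at adjusted p of up to 0.0711.

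The other condensin genes did not pass with all 6 arrays. Smc2 and Smc4 are the paired core subunits of condensin. Smc2 gave 197, 116 and 102 against 79.9, 51.6 and 60.9, a log2 difference of 0.91 (SE 0.25, adjusted p = 0.0578). Smc4, the brightest of the class, gave 331, 300.5 and 166 against 205, 119 and 195, a log2 difference of 0.55 (SE 0.31, adjusted p = 0.304). In Smc4 GFP-positive replicate 3 lay below GFP-negative replicates 1 and 3, while replicates 1 and 2 were above all GFP-negative arrays. Ncapg, another subunit of condensin I, gave 33.2, 29.9 and 21.1 against 19.8, 15.7 and 12.2, a log2 difference of 0.46 (SE 0.14, adjusted p = 0.0667). These 3 genes passed without GFP-positive replicate 3, and Ncapd2, at 0.27 with overlapping arrays, did not.

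Spindle assembly and microtubule genes gave 3 of 5 higher, 0 lower and a median of 1.03. Those that rose were Nusap1, which bundles spindle microtubules, at 1.20, Tpx2, the activator of aurora A, at 1.03, and Prc1, which crosslinks the central spindle, at 0.74. Nusap1 was read from a suffixed probe set (_i). On its plain probe set, which was dim, it did not pass at 0.18 (adjusted p = 0.284), and on a chip C probe set that may match several transcripts it rose by 0.98 (adjusted p = 0.00307). Prc1 lost its call without GFP-positive replicate 2 or GFP-negative replicate 2 or 3, at adjusted p of up to 0.0862. Tacc3, which stabilises spindle microtubules, gave 113, 75.6 and 37.4 against 30.3, 21.8 and 18.8, a log2 difference of 1.12 (SE 0.33, adjusted p = 0.0666), and passed once GFP-positive replicate 3 was left out. Stmn1, stathmin, a protein that destabilises microtubules and is also abundant in developing neurons, was the brightest of its class. It gave 1675, 1255 and 1812 on the GFP-positive arrays and 2119, 2542 and 2354 on the GFP-negative arrays, a log2 difference of -0.57 (SE 0.16, adjusted p = 0.0545). All GFP-negative arrays were above all GFP-positive ones, and without GFP-positive replicate 3 the difference was -0.68 and passed.

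All 3 cytokinesis genes rose, with a median of 0.94. Ect2, which activates RhoA at the cleavage furrow, gave 123, 92.3 and 71.6 against 52.8, 32.2 and 40.1, a log2 difference of 0.94 (SE 0.21, adjusted p = 0.0276). The call of Ect2 was lost without GFP-positive replicate 2 or GFP-negative replicate 2 or 3, at adjusted p of up to 0.102. Anln, anillin, which scaffolds the contractile ring, rose by 1.07 and Racgap1, the partner of KIF23 in the central spindle, by 0.46. Racgap1 was dim in both populations and lost its call without GFP-positive replicate 2 or any one of the GFP-negative arrays.

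Foxm1, a transcription factor of late cell cycle genes, did not pass. It gave 72.8, 76.2 and 197 against 70.9, 81.3 and 76.9, a log2 difference of 0.38 (SE 0.34, adjusted p = 0.531). Only GFP-positive replicate 3 was high, and without that array the difference was -0.03. Its other 2 probe sets had differences of 0.30 and 0.26 and did not pass.

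**Figure D2:**
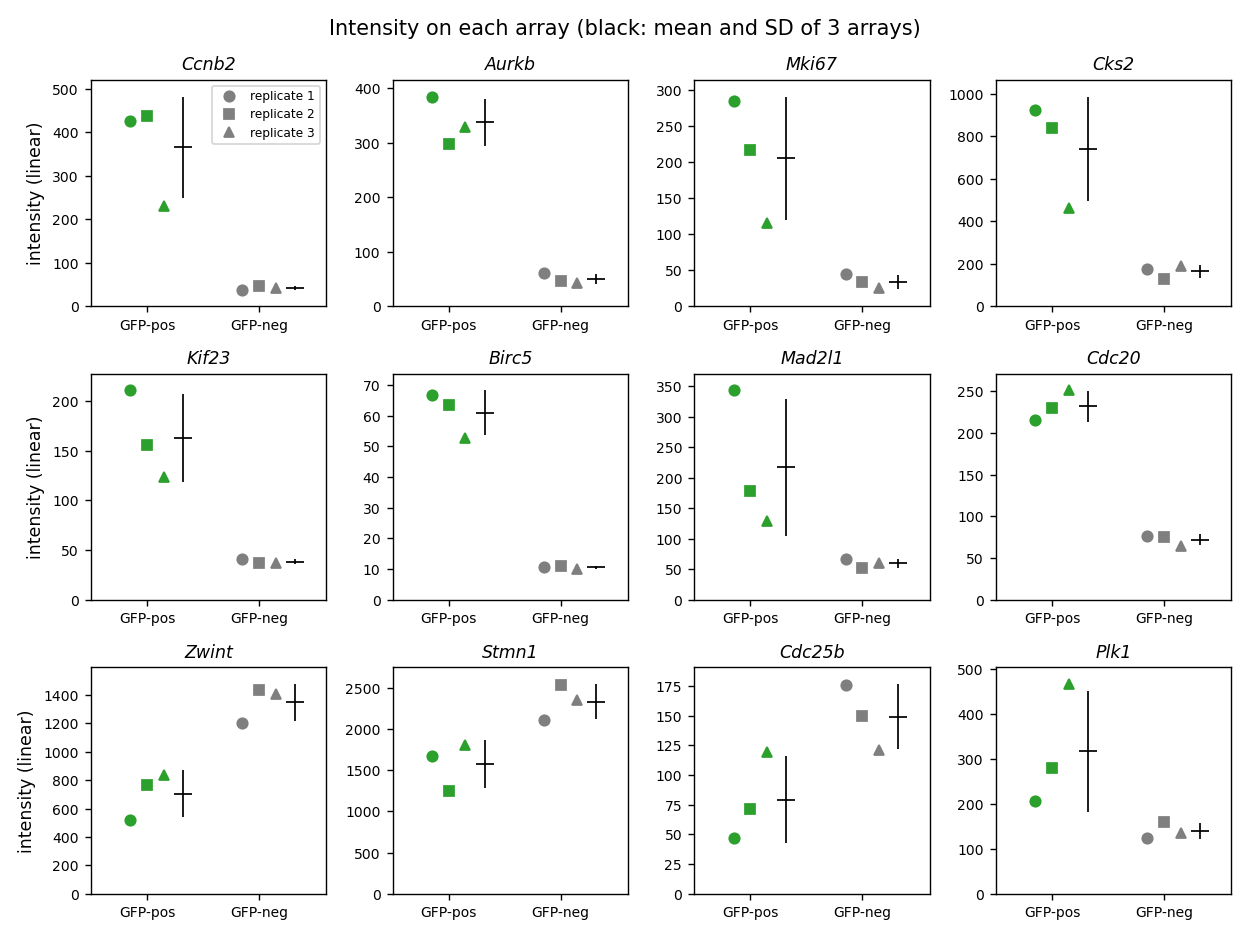
Deposited linear intensity (vertical axis, from 0) on each GFP-positive (green) and GFP-negative (grey) array for the 8 genes with the largest increases and for Zwint, Stmn1, Cdc25b and Plk1. Symbols are replicates, and black marks are the mean and SD of 3 arrays. In the first 8 genes every GFP-positive array lies above every GFP-negative array, in Zwint, Stmn1 and Cdc25b every one lies below, and Plk1 reaches 467 on GFP-positive replicate 3.

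GFP-positive replicate 3 stood apart. Across probe sets its Spearman correlation with the other GFP-positive arrays was 0.911 to 0.929 on the 3 chips, against 0.960 to 0.987 for the other pairs within a population. Of the 30 genes that rose, 20 were lowest on this array and 20 highest on replicate 1. Their median log2 excess over the GFP-negative mean was 1.26, 1.16 and 0.95 on replicates 1, 2 and 3. Over the 50 genes, 60% were lowest on replicate 3, where 44.1% of all genes were. On replicate 1, 54% of the 50 were highest, where 31.7% of all genes were. The median intensity of the 50 was 105.3, 93.8 and 89.4 on the GFP-positive arrays and 48.8, 46.2 and 41.4 on the GFP-negative arrays, so the populations did not overlap in it.

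Without GFP-positive replicate 3 the genes called were 39 higher and 3 lower, where 14.0% of all genes were called higher. Ccna2, Plk1, Melk, Bub3, Kif2c, Smc2, Smc4, Ncapg and Tacc3 were then added to the genes that were higher, and Cdc25b and Stmn1 to the genes that were lower. All 30 genes called higher with all arrays kept their call. Of the 30, 16 passed in every alternative setting that gave a value for them. These were Ccnb2, Cdk1, Cks2, Nek2, Bub1b, Cenpf, Aurkb, Birc5, Cdc20, Espl1, Kif22, Kif23, Ncaph, Mki67, Tpx2 and Anln.

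**Figure D3:**
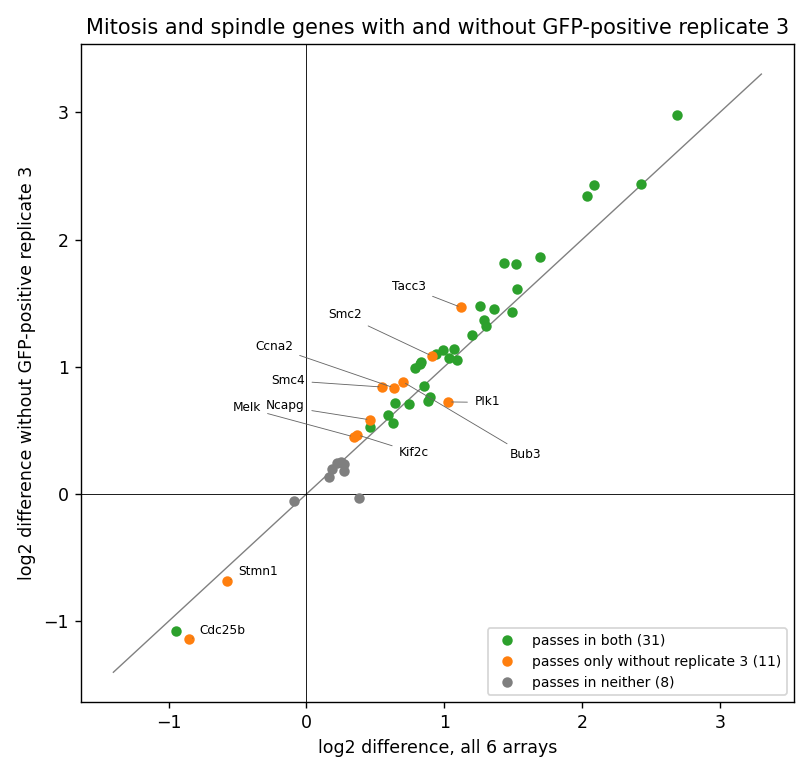
Log2 difference between GFP-positive and GFP-negative cells with all 6 arrays (horizontal axis) and without GFP-positive replicate 3 (vertical axis) for the 50 genes, with the line of equality. The 31 green genes passed in both fits, the 11 orange and named genes passed without the array alone, and the 8 grey genes passed in neither.

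**Figure D4:**
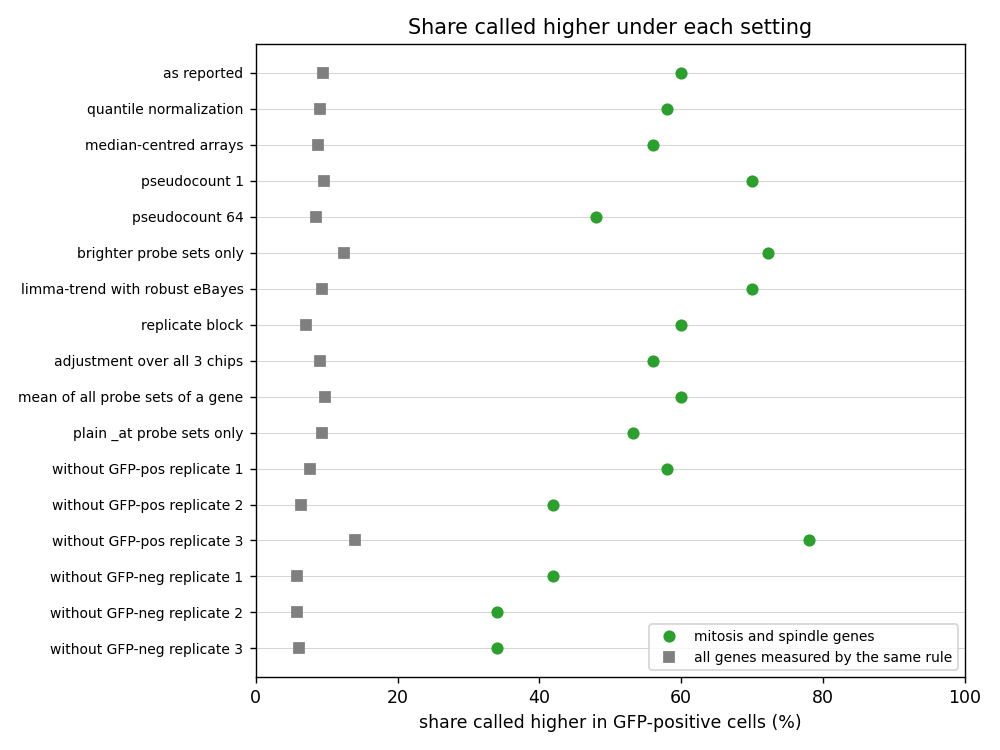
Share of genes called higher in GFP-positive cells (horizontal axis, percent) with the setting as reported and with each of 16 alternatives, for the mitosis and spindle genes (green circles) and all genes measured by the same rule (grey squares). The circles lie between 34% and 78% and the squares between 5.81% and 14.0%.

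Other probe sets gave a second reading of part of the group. Of the 50 genes, 27 had 53 further probe sets, those on the same chip being dimmer by the rule that chose the brightest, and 12 of the 53 were called higher and 1 lower. Over the 13167 other probe sets of all genes, 6.49% were called higher, 8.68% were called lower and 58.2% had a difference above 0. Of the 25 that belonged to genes called higher, 8 were called higher, 0 lower, and 24 had a difference above 0. Among genes that did not pass on the chosen probe set, another probe set rose for Incenp, for Plk1 by 0.53 (adjusted p = 0.0404), for Smc2 by 1.16 (adjusted p = 0.00986) and for Tacc3 by 0.82 (adjusted p = 0.0243). A chip B probe set of Bub3 went the other way at -0.35 (adjusted p = 0.0622). The chosen probe set of 9 genes was suffixed (_f, _s, _r, _i or _g), and 5 of those 9 were among the genes called higher. Of these 5, Pttg1, Kif20a, Kifc1 and Nusap1 lost their call on their plain probe sets, and Kif22 has none here.

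A wider list of 160 other genes, of which 151 were measured, gave a smaller share. The list is called other mitosis genes here, though it also holds general cell cycle regulators. In it 29 rose (19.2%) and 13 fell (8.61%), where 9.43% of all genes were called higher and 11.3% lower. The median log2 difference was 0.13, against 0.04 over all genes. Over its classes the share that rose ran from 7.69% (cohesin) to 37% (other kinetochore and centromere), and the share that fell from 0% to 25%. Without GFP-positive replicate 2 or GFP-negative replicate 1, 2 or 3 the count that rose was 18, 16, 19 and 17. The count that fell was 6 without GFP-positive replicate 2 and 8 without GFP-negative replicate 1 or 3. Of all genes, 5.81% to 6.43% were called higher and 7.69% to 8.74% lower in these fits. By class, the other kinetochore and centromere genes gave 10 higher and 2 lower of 27, other cytokinesis genes 4 and 1 of 12, and regulators and subunits of the anaphase-promoting complex 3 and 0 of 17. Cohesin and its regulators gave 1 and 0 of 13, centrosome and spindle genes 2 and 4 of 25, and the DREAM, B-MYB and E2F regulators 2 and 4 of 16. The remaining classes were other condensin and chromosome periphery genes (2 and 0 of 8), other mitotic kinesins and dynein (3 and 0 of 14) and other cell cycle kinases, phosphatases and CDK regulators (2 and 2 of 19).

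The largest increases of this wider list were in Kif15, a spindle kinesin, at 1.81 (SE 0.21, adjusted p = 0.00148), Rhoa, the GTPase of the contractile ring and of the cytoskeleton in general, at 1.68 (SE 0.18, adjusted p = 0.00211), and Cep55, a midbody protein, at 1.65 (SE 0.16, adjusted p = 0.000713). They were followed by Plk2, a polo-like kinase that also acts outside mitosis, at 1.64 (SE 0.34, adjusted p = 0.0219), and Cenph, a kinetochore protein, at 1.41 (SE 0.21, adjusted p = 0.00428). Kif15, Rhoa and Cenph were read from suffixed probe sets, those of Kif15 and Cenph with the suffix _f. On their brightest plain probe sets Kif15 had the opposite sign, at -0.51 (adjusted p = 0.0162), Rhoa was at 0.18 (adjusted p = 0.62) and Cenph at 0.018 (adjusted p = 0.911). Plk2 lost its call without GFP-positive replicate 2 or GFP-negative replicate 3, at adjusted p of up to 0.0869.

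The largest decreases of the wider list were in Rb1, the retinoblastoma protein, at -1.56 (SE 0.31, adjusted p = 0.0196), Clasp1, a microtubule plus-end protein, at -1.51 (SE 0.10, adjusted p = 0.000165), and Spc25, a subunit of the NDC80 complex, at -1.48 (SE 0.39, adjusted p = 0.0393). Lin37, a subunit of DREAM, and Cdc14a, a phosphatase, also fell, with log2 differences of -1.42 and -1.17. Spc25 was 44.0, 39.6 and 36.8 on the GFP-positive arrays and 291, 98.0 and 93.3 on the GFP-negative arrays, where replicate 1 was far above the others, and it lost its call without GFP-positive replicate 1 or 2 or GFP-negative replicate 2, at adjusted p of up to 0.103. Rb1 lost its call without GFP-positive replicate 2 or GFP-negative replicate 1 or 3, at adjusted p of up to 0.0770. Lin37 and Cdc14a were also read from suffixed probe sets. Lin37 had a difference of 0.17 (adjusted p = 0.347) on its plain probe set, and Cdc14a has none here.

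Genes of G1 and S phase lay between these lists, with 15 of 52 measured (28.8%) higher, 3 (5.77%) lower and a median log2 difference of 0.32. Of all genes 9.43% were called higher and 11.3% lower. The replication genes Mcm3, a subunit of the replicative helicase, Gmnn, geminin, and Cdt1, the licensing factor that geminin inhibits, rose by 2.13, 1.43 and 1.39, and Tk1, thymidine kinase, by 1.21. Cdt1 was at 0.22 (adjusted p = 0.134) on its plain probe set. Cdkn1a, the CDK inhibitor p21, had the largest increase at 141, 711 and 559 against 65.2, 59.1 and 69.7, a log2 difference of 2.32 (SE 0.57, adjusted p = 0.0395). Its GFP-positive replicate 1 was far below the other 2, and its call was lost without any array but that one, at adjusted p of up to 0.124. The 3 that fell were Cdk6, a G1 kinase, at -2.94 (SE 0.25, adjusted p = 0.000375), Cdkn1c, the CDK inhibitor p57, at -2.20 (SE 0.17, adjusted p = 0.000612), and Rpa1, which binds single-stranded DNA, at -0.64 (SE 0.11, adjusted p = 0.0108).

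Most endothelial markers rose with the mitosis genes. Cldn5, a tight junction protein of endothelial cells, and Tek, the receptor whose promoter drives the transgene, rose by 6.21 and 4.15. Of 12 endothelial markers 9 rose (75%), where 9.43% of all genes were called higher. Kdr, Pecam1 and Egfl7 did not, at 0.01, -0.05 and 0.06. Of 16 microglia and leukocyte markers 4 rose (25%), Fcer1g, C1qb, Laptm5 and Lcp1. Below the chip median were 9 of the 16 in the GFP-positive population and 13 in the GFP-negative one. Their summed intensity was 1791 to 2944 on the GFP-positive and 597 to 635 on the GFP-negative arrays, and 826 to 1675 against 581 to 610 without Lcp1, with none of the 16 listed at 0. Csf1r, the receptor of the macrophage growth factor, was 37.3, 41.2 and 929.8 on GFP-positive replicates 1, 2 and 3 and 94.3, 112 and 108 on the GFP-negative ones, and was singled out after its values were seen. It was high on GFP-positive replicate 3 alone, and lower than on every GFP-negative array on the other 2. That array had the highest sum only with Csf1r counted. Csf1r was read from a suffixed probe set (_r), 1 of its 2 on chip A. Markers of other lineages were also high on GFP-positive replicate 3 alone. Among them, Pcp2 (bipolar and amacrine) gave 172, 240 and 3689 and Glul (Müller glia) 136, 156 and 986 on GFP-positive replicates 1, 2 and 3. Without Lcp1 and Csf1r the sums were 745 to 937 against 473 to 498. The lowest GFP-positive sum, 745, was then that of replicate 3. Fcer1g, C1qb and Laptm5 were read from suffixed probe sets, those of Fcer1g and Laptm5 with the suffix _f and that of C1qb with _i. On their plain probe sets C1qb was at -0.036 (adjusted p = 0.812), Fcer1g at 0.11 (adjusted p = 0.454) and Laptm5 at 0.72 (adjusted p = 0.00106), against 0.78, 1.496 and 1.56 on the chosen ones. Fcer1g lost its call without GFP-positive replicate 1 or any one of the GFP-negative arrays.

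Markers of the retinal lineages that passed were, except for Nes, lower in the GFP-positive population. Of 11 retinal progenitor markers 6 fell and 1, Nes, rose, with summed intensities of 640 to 1072 on the GFP-positive and 1936 to 2800.3 on the GFP-negative arrays. Of 8 Müller glia markers 6 fell, of 9 photoreceptor markers 3, of 5 astrocyte markers 2 and of 7 bipolar and amacrine markers 1. Of all genes 11.3% were called lower, and the bipolar and amacrine share, 14.3%, was close to that. Bipolar and amacrine sums overlapped, at 398 to 4053 on the GFP-positive and 1503 to 2291 on the GFP-negative arrays. Müller glia, photoreceptor and astrocyte sums did not overlap and were lower on the GFP-positive arrays. Of 5 erythroid and 9 pericyte and smooth muscle markers 0 passed in either direction. The sums of the last-named lists were 226 to 250.1 against 201 to 224 and 290.1 to 378 against 330.4 to 394. The part of these other cells in the differences of the mitosis and spindle genes was not tested.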

How the data were processed

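Amplified RNA of GFP-positive and GFP-negative retinal cells was measured on 1-colour Affymetrix MGU74v2 chips (12422, 12411 and 11868 probe sets). The authors deposited linear intensity values per probe set. Their summarisation, background correction and normalization are not given in the sources used here. Array medians lay within 43.3 to 44.5, 40.7 to 44.6 and 32.5 to 34.4 on chips A, B and C, so the values were kept as deposited. The number of arrays limits the precision.

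Gene names of probe sets came from the platform annotation, without those that list more than 1 symbol. The chips were fitted separately on log2(deposited intensity + 16) with lmFit and eBayes of limma 3.58.1 (R 4.3.3), two-sided, without a replicate block, with Benjamini-Hochberg adjustment within the chip at 0.05. Groups and replicate numbers came from the titles. Values on every array are given for the 8 called genes with the largest differences in each direction, the brightest gene of each role and genes whose call changes without GFP-positive replicate 3, and other lists give 5 per direction. The genes and lists were chosen with earlier results of these data known. On simulated arrays the fit recovered 73%, 63% and 80% of changes of 1 and 93%, 91% and 94% of changes of 2 (log2) on chips A, B and C. Only 200 probe sets a chip were changed there, with independent noise, and 12, 4 and 15 unchanged ones were called. The 16 alternatives covered normalization, pseudocounts of 1 and 64, dim probe sets, limma-trend, the block, adjustment over all chips, the probe set of a gene and each array left out.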

Additional observations from a re-analysis of the deposited data

How the results depend on the processing

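Of 16 alternatives 15 were planned, and plain probe sets only was added after the data were seen. The count of mitosis and spindle genes called higher stayed within 1.5 times of 30 under all alternatives except the omission of GFP-negative replicate 2 or 3, and ranged from 17 to 39 over arrays left out. It was 35 with a pseudocount of 1 or limma-trend, 24 with a pseudocount of 64, 26 of 36 with brighter probe sets only and 25 of 47 with plain probe sets only. Of all genes 9.58%, 9.41%, 8.54%, 12.5% and 9.41% were called higher in these settings, in that order. The count called lower was 2 with quantile normalization or brighter probe sets only and ranged from 0 to 3 over arrays left out. The median log2 difference was 1.00 with a pseudocount of 1, 0.55 with a pseudocount of 64 and 0.68 with the mean of all probe sets of a gene, and ranged from 0.76 to 0.89 over arrays left out. Over arrays left out, other mitosis genes called higher ranged from 16 to 41 and lower from 6 to 19. For G1 and S phase genes the ranges were 10 to 21 and 3 to 4. The share of all genes called higher then ranged from 5.81% to 14.0%, and called lower from 7.69% to 15.9%. The sign turned under some alternative for Cdc25c and Foxm1 alone among the 50 genes, and neither was called. With plain probe sets only, Pttg1 (0.30), Kif20a (0.12), Kifc1 (0.0053) and Nusap1 (0.18) lost their call, as did Rhoa, Cenph, Cdt1 and Fcer1g, and the sign turned for Kif15 (-0.51), Lin37 (0.17) and C1qb (-0.036). With the replicate block 30 mitosis and spindle genes were called higher and 1 lower, with Cks1b, Pttg1 and Prc1 lost and Smc2, Ncapg and Tacc3 gained. The deviations of same-numbered arrays correlated between -0.37 and 0.29, and 5 of 18 arrays correlated best with their own number, so the numbers were not taken to pair the arrays. Signal over background limits the 9 genes dimmer than the chip median in both populations. The cause of these changes was not tested.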
